A study of Homo sapiens with 12 samples.

Results

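The transcripts of 10 receptor tyrosine kinase genes were followed by name in RNA-seq libraries of 2 human pancreatic neuroendocrine tumor (pNET) cell lines, QGP-1 and BON-1: EGFR, ERBB2, ERBB3, ERBB4, MET, IGF1R, INSR, KIT, PDGFRA and RET. The 10 symbols were looked up among the 28008 genes of the count table of each line, and all 10 were found in both. The cells carried an inducible hairpin against MUC1 (tet-MUC1shRNA, in the pLKO-tet-puro vector, selected with puromycin after transduction), and this holds for the controls too. Cells given 0.1% DMSO (vehicle) were compared with cells given 500 ng/mL doxycycline (DOX), which switches the hairpin on, for 7 days. There were 3 libraries in each of 4 groups, 12 in all. QGP-1 cells grew in RPMI 1640 and BON-1 cells in DMEM/F-12, so that line, medium and whatever else differed between the cultures cannot be told apart. RNA-seq libraries of cells with a control hairpin were not analysed here, so an effect of DOX itself and an effect of the MUC1 hairpin cannot be told apart either. The libraries of a group are described as biologic triplicates, from cells cultured in triplicate. The p-values weigh the difference between groups against the spread between such cultures, which was estimated with the help of all genes. They do not cover other hairpins or other cell lines.

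Receptor tyrosine kinases are membrane proteins that bind a growth factor outside the cell, pair up, and phosphorylate tyrosines on each other inside it. Adaptors such as GRB2 and SHC1 dock on those tyrosines and carry the signal to RAS and ERK or to PI3K and AKT. EGFR, ERBB2, ERBB3 and ERBB4 form the ERBB family and signal as mixed pairs. ERBB2 has no known ligand, and ERBB3 has a weak kinase and depends on its partner. MET is the receptor for hepatocyte growth factor, IGF1R and INSR are the receptors for the insulin-like growth factors and insulin, KIT is the receptor for stem cell factor, PDGFRA for platelet-derived growth factors, and RET for the GDNF family together with a GFRA co-receptor. In pNETs the family is known as a drug target, since sunitinib inhibits KIT and the PDGF and VEGF receptors.

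The genes whose transcripts moved the same way in both lines, with calls that held in every fit leaving out 1 library, were KIT, which fell, and MET, which rose. RET had the smallest adjusted p of the 10 genes in BON-1 cells, where it fell. The bases that precede their start sites are therefore shown. They were taken from RefSeq (GRCh38.p14), which gave an entry for 9 of the 10 genes (ERBB3 was without one), as the 250 bases before the start. All 3 are on the plus strand and are written 5′ to 3′. Each stretch ends before the first base in the window that GENCODE v44 annotates as exon. The KIT stretch precedes the KIT start site that RefSeq gives and lies in the first intron of 1 transcript that starts farther upstream. Capitals mark every GC-box, GGGCGG or its reverse complement CCGCCC.
KIT, chr4:54657707-54657888: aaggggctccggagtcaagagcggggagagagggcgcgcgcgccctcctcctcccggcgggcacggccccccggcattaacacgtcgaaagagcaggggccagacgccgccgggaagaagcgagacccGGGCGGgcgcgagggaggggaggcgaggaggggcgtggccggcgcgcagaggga
MET, chr7:116671946-116672195: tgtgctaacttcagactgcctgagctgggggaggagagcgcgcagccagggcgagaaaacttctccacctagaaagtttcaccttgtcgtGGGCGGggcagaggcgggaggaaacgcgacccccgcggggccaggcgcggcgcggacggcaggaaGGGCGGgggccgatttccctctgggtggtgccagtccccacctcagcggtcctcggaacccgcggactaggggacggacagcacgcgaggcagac
RET, chr10:43076819-43077063: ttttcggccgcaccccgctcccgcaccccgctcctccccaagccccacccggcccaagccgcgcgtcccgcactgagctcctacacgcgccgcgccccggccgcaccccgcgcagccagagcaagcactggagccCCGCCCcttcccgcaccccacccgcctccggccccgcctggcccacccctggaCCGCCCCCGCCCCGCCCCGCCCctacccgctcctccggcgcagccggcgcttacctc
A GC-box, searched on both strands, was in the 250-base window of 42.3% of 27326 RefSeq promoters. It was found 1 time before KIT, 2 times before MET and 5 times before RET, and 4 of the RET boxes touch or overlap in 1 run. EGFR and IGF1R had 2, INSR 4, ERBB4 1, and ERBB2 and PDGFRA had 0. The windows of KIT, MET and RET were GC-rich, at 76.4%, 68.4% and 79.6% G and C against a median of 58.0% over all promoters. This was not particular to them, with 81.2% for IGF1R, 78.4% for INSR, 73.6% for EGFR, 65.6% for ERBB2, 57.2% for ERBB4 and 46.8% for PDGFRA. The E-box CACGTG (in 6.5% of all promoters) and the TATA motif TATAAA (in 11.1%) were in none of the 9 windows on either strand. The AP-1 motif TGANTCA (in 6.6%) was found 1 time before ERBB2 and 1 time before PDGFRA. The CCAAT box (in 33.0%) was found 1 time before ERBB2. These are matches of letters, and no binding was measured here. The windows were set by the RefSeq start. All of the KIT window and parts of those of ERBB2, ERBB4, PDGFRA and RET lie inside the gene as GENCODE v44 places it.

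Depth ranged from 38224144 to 50525926 counts per QGP-1 library and from 15981954 to 28484324 per BON-1 library. Levels below are CPM (counts scaled to a common library total) after TMM scaling, which sets the libraries of a line to a common base, and are compared between libraries only. MUC1, the target of the hairpin, stood at 7.19, 5.81 and 5.65 CPM in the QGP-1 vehicle and 0.705, 1.04 and 0.744 CPM in the DOX libraries, and at 20.6, 20.7 and 15.6 and 1.48, 2.65 and 3.97 CPM in BON-1 cells. It was thus lower in every DOX library than in any vehicle library of its line, with a log2 fold change of -2.91 (SE 0.23, adjusted p = 8.24e-07) in QGP-1 and -2.79 (SE 0.22, adjusted p = 6.51e-11) in BON-1 cells. Neuroendocrine markers were present as labelled, with CHGA, CHGB, SYP, INSM1 and SCG3 at 24.3 CPM or higher in all 12 libraries. NCAM1 had 1582 or more counts in QGP-1 libraries and 2 or fewer in BON-1 libraries. The epithelial genes EPCAM, KRT8 and KRT18 stood at 296 CPM or higher throughout. Fibroblasts and mast cells are known to carry PDGFRA and KIT, and of their markers PDGFRB, DCN, THY1, TPSAB1, CPA3 and HDC had fewer than 10 counts in every library. The mesenchymal list did not go 1 way. COL1A1 (QGP-1, and BON-1 vehicle), COL1A2 (QGP-1 vehicle), COL3A1 (BON-1 DOX) and LUM (BON-1) were not below 10 counts in every library of those groups. Of the marker lists, 1 of 12 neuroendocrine genes fell and 3 rose in QGP-1 cells, and 4 of 11 fell and 2 rose in BON-1 cells. Over all genes tested, 17.7% fell and 17.3% rose in QGP-1 and 18.3% fell and 17.0% rose in BON-1 cells. Of 7 epithelial genes 1 fell in QGP-1 and 3 rose in BON-1 cells. Of 5 endothelial genes 2 and 3 could be tested in the 2 lines, and 0 passed. Of 8 mesenchymal genes 1 could be tested in each line, COL1A1, which fell in QGP-1 cells (-1.16, SE 0.29, adjusted p = 0.00727), and LUM, which rose in BON-1 cells (1.01, SE 0.18, adjusted p = 6.20e-05). Of 8 immune and mast cell genes 2 could be tested, LYZ and CD68. LYZ rose in QGP-1 (0.64, SE 0.12, adjusted p = 0.000806) and CD68 in BON-1 cells (1.00, SE 0.10, adjusted p = 4.33e-09).

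DOX moved 6 of the 10 receptor genes in each line, but not the same 6. In QGP-1 cells KIT and ERBB3 fell and EGFR, ERBB2, ERBB4 and MET rose. In BON-1 cells KIT, RET and ERBB2 fell and ERBB3, INSR and MET rose. The threshold for a call was an adjusted p of 0.05 in edgeR's quasi-likelihood test with Benjamini-Hochberg adjustment over all genes tested. It was passed by 35.0% of the 15089 genes tested in QGP-1 and 35.3% of the 14625 tested in BON-1 cells, so a call was common in these data. By direction, 2 of 10 receptor genes fell and 4 rose in QGP-1 cells, against 17.7% and 17.3% of all genes, and 3 fell and 3 rose in BON-1 cells, against 18.3% and 17.0%. The median log2 fold change of the 10 was 0.24 in QGP-1 and 0.08 in BON-1 cells, beside -0.01 over all genes in each line. Except for KIT, the called changes were under 1 on the log2 scale. The ranges of the 3 vehicle and 3 DOX libraries did not overlap for 8 of 10 genes in each line, against 46.7% and 46.3% of all genes tested. The smallest two-sided p of an exact permutation test is 0.1 with 3 libraries per group, and the fit across all genes was used in its place.

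The scale mattered for the smaller changes. The deposited TPM values, which also divide by gene length, were dominated by RN7SK, RN7SL1 and RN7SL2, abundant noncoding RNAs that took 71.2% to 80.3% of the TPM in QGP-1 and 50.9% to 74.3% in BON-1 libraries. On that scale the median of all genes moved with DOX by 0.59 in QGP-1 and by -0.31 in BON-1 cells on the log2 scale, and the receptor genes split into 0 lower and 7 higher in QGP-1 and 0 and 0 in BON-1 cells. With the 3 RNAs left out and the TPM rescaled to a common total, the median still moved by 0.29 and -0.05, and the split was 1 lower and 6 higher in QGP-1 and 2 lower and 1 higher in BON-1 cells. Relative to those medians, every called receptor gene that passed the filter of a scale kept its direction in both lines (4 of 6 in QGP-1 cells on the deposited TPM, 6 of 6 elsewhere). Taken without that allowance, ERBB3 turned to 0.37 and 0.01 in QGP-1 cells on the deposited and rescaled TPM, and in BON-1 cells ERBB3 and MET turned to -0.17 and -0.06 on the deposited TPM. On the rescaled TPM the BON-1 calls for ERBB2, ERBB3 and MET were lost (limma adjusted p = 0.0697, 0.253 and 0.0523). The log2 fold changes below are on the TMM-scaled counts, where the scaling itself centres most genes near 0. Ratios and marker sums are on the rescaled TPM.

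**Figure D1:**
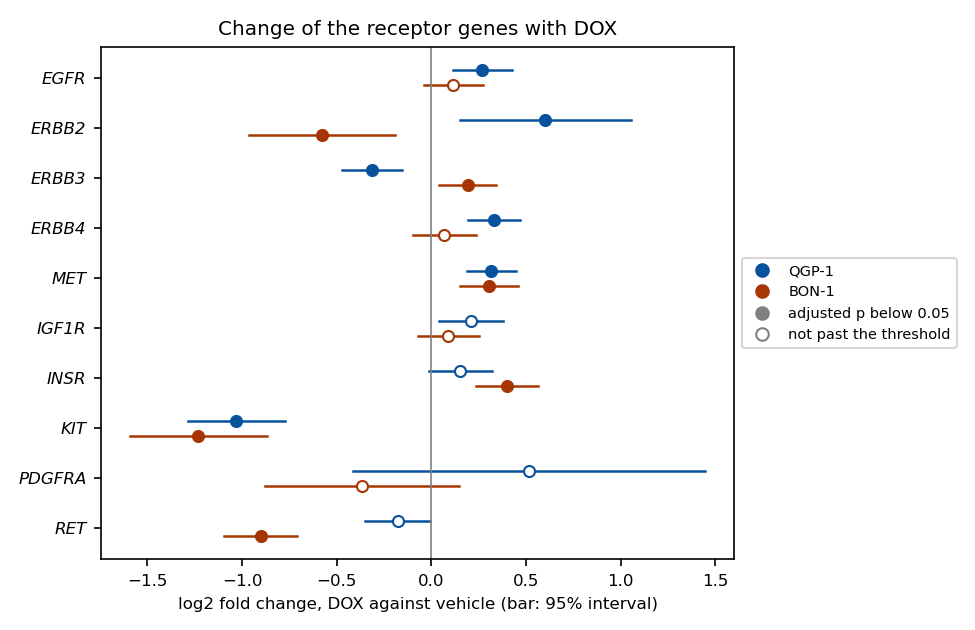
Log2 fold change with DOX against vehicle for the 10 receptor genes (x axis, TMM-scaled counts, 3 libraries per group) in QGP-1 (blue) and BON-1 cells (brown). Points are edgeR estimates, bars are 95% intervals, and filled points passed an adjusted p of 0.05. KIT lies near -1 in both lines, MET near 0.3 in both, ERBB2 and ERBB3 on opposite sides of 0 in the 2 lines, and RET below -0.71 over its whole interval only in BON-1 cells. On the TPM scales ERBB3 and RET (QGP-1) and, on the deposited TPM, EGFR, ERBB3, ERBB4, IGF1R and MET (BON-1) change sign.

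EGFR (chr7:55019017-55211628, plus strand of GRCh38), the receptor for EGF, TGFA, AREG and other ligands, was abundant in both lines. Its levels were 164, 169 and 151 CPM in the QGP-1 vehicle and 189, 209 and 184 CPM in the DOX libraries. All 3 DOX libraries were above all 3 vehicle libraries, and the log2 fold change was 0.27 (SE 0.07, adjusted p = 0.0110). Without DOX replicate 2, the highest library, it was 0.21 and no longer passed. In BON-1 cells EGFR stood at 110.1, 113 and 107 CPM with vehicle and 114, 119.5 and 124 CPM with DOX. The groups did not overlap, but the log2 difference of 0.12 (SE 0.08, adjusted p = 0.245) did not pass, with a 95% interval of -0.04 to 0.27. Between the lines the EGFR changes differed by -0.14 (SE 0.11, adjusted p = 0.401), with a 95% interval of -0.36 to 0.08.

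ERBB2 (chr17:39687914-39730426, plus strand), the preferred partner of the other ERBB receptors, moved in opposite directions in the 2 lines. Its counts were low, at 81 to 227 per library over the 12 libraries. QGP-1 libraries held 2.12, 3.17 and 2.69 CPM with vehicle and 4.71, 3.47 and 3.95 CPM with DOX, and BON-1 libraries held 7.42, 9.44 and 8.67 and 5.2, 6.45 and 5.39 CPM. The groups were apart in both lines, higher with DOX in QGP-1 and lower with DOX in BON-1 cells. The log2 fold change was 0.60 (SE 0.21, adjusted p = 0.0390) in QGP-1 cells and -0.58 (SE 0.19, adjusted p = 0.0173) in BON-1 cells. The QGP-1 call held in 2 of 6 fits that left out 1 library. It was lost without vehicle replicate 1 (0.47), vehicle replicate 3 (0.61), DOX replicate 1 (0.48) or DOX replicate 3 (0.62). The BON-1 call held in 4 of 6 and was lost without vehicle replicate 2 (-0.50) or DOX replicate 1 (-0.53). The ends of ERBB2 overlap PGAP3 and MIEN1 on the other strand, which reached 416 and 2995 counts in QGP-1 and 75 and 547 in BON-1 libraries. Whether the counting used strand is not given in the sources used here, so reads from the shared stretches may be uncertain.

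ERBB3 (chr12:56076799-56103505, plus strand), the neuregulin receptor that links the family to PI3K, changed the other way round. QGP-1 libraries held 89.2, 97.3 and 88.2 CPM with vehicle and 76.4, 75.1 and 69.4 CPM with DOX, a log2 fold change of -0.31 (SE 0.07, adjusted p = 0.00473), and this call held in all 6 fits that left out 1 library. BON-1 libraries held 167, 159 and 165 CPM with vehicle and 182, 186 and 192 CPM with DOX. Each DOX library lay above each vehicle library, with a log2 fold change of 0.19 (SE 0.07, adjusted p = 0.0430). That smaller rise passed in 1 of 6 fits that left out 1 library, the fit without vehicle replicate 1, and its log2 fold change ranged from 0.15 to 0.21 over the 6. It did not pass with library size (adjusted p = 0.0990) or upper-quartile factors (adjusted p = 0.0630) in place of TMM, without a filter on low counts (adjusted p = 0.103), or with at least 10 counts in every library (adjusted p = 0.0523), and on the deposited TPM its sign turned.

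The difference between the lines was itself tested for each gene, as the log2 fold change in BON-1 minus that in QGP-1 cells. It passed for 3 of the 10 receptor genes, where 16.7% of the 16598 genes tested passed. By direction, 2 of the 10 were lower and 1 was higher in BON-1 cells, against 7.92% and 8.80% of all genes. ERBB2 gave -1.17 (SE 0.28, adjusted p = 0.00554) and ERBB3 gave 0.52 (SE 0.10, adjusted p = 0.000984), with opposite signs. The ERBB3 difference did not pass on the rescaled TPM (0.14, SE 0.12, limma adjusted p = 0.346). On the deposited TPM its sign turned, without passing (-0.53, limma adjusted p = 0.177). As a ratio within each library, ERBB3 per ERBB2 (rescaled TPM) was 37.0, 27.1 and 28.9 in the QGP-1 vehicle and 14.3, 19.1 and 15.5 in the QGP-1 DOX libraries. In BON-1 cells it was 19.9, 14.8 and 16.8 with vehicle and 30.9, 25.4 and 31.4 with DOX. The ratio thus fell below every vehicle value in QGP-1 and rose above every vehicle value in BON-1 cells. A ratio within a library does not depend on how libraries are scaled to each other.

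ERBB4 (chr2:211375717-212538841, minus strand), a neuregulin receptor with an active kinase, rose in QGP-1 cells. Its levels went from 129, 126 and 125 CPM to 154, 163 and 161 CPM, with a log2 fold change of 0.33 (SE 0.06, adjusted p = 0.00121). In BON-1 cells the groups overlapped, at 87.9, 91.6 and 85.9 CPM with vehicle and 93.0, 85.7 and 99.5 CPM with DOX. The log2 difference there was 0.07 (SE 0.08, adjusted p = 0.554), with a 95% interval of -0.10 to 0.23. The difference between the lines, -0.25 (SE 0.10, adjusted p = 0.101), did not pass. It passed with DESeq2 (-0.26, adjusted p = 0.0487) and with library size in place of TMM (-0.32, adjusted p = 0.0307), and without QGP-1 DOX replicate 1 (-0.33) or BON-1 DOX replicate 3 (-0.33). It passed on both TPM scales too, but for this difference 68.2% (deposited) and 40.0% (rescaled) of all genes were called lower there.

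MET (chr7:116672196-116798377, plus strand), the gene with the 2 GC-boxes shown above, rose in both lines. QGP-1 libraries held 235, 232 and 234 CPM with vehicle and 297, 291 and 285 CPM with DOX. The vehicle libraries lay within a few CPM of each other, and all DOX libraries were higher. The log2 fold change was 0.32 (SE 0.06, adjusted p = 0.00119). BON-1 libraries held 311, 289 and 282 CPM with vehicle and 355, 362 and 371 CPM with DOX, and again the groups did not overlap. The log2 fold change was 0.30 (SE 0.07, adjusted p = 0.00207), and both calls held in all 6 fits that left out 1 library of the line. Between the lines MET differed by -0.0039 (SE 0.10, adjusted p = 1.00), with a 95% interval of -0.20 to 0.20.

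INSR and IGF1R, the paired receptors of the insulin family, gave 1 call in the 2 lines. INSR (chr19:7112255-7294414, minus strand) stood at 84.2, 79.9 and 77.7 CPM in the BON-1 vehicle and 111, 107 and 102 CPM in the BON-1 DOX libraries. The groups were far apart, and the log2 fold change was 0.40 (SE 0.08, adjusted p = 0.000221). In QGP-1 cells INSR was at 102, 108 and 89.8 CPM with vehicle and 111, 115 and 107 CPM with DOX. There 1 vehicle library lay inside the DOX range, and the log2 difference was 0.15 (SE 0.08, adjusted p = 0.147), with a 95% interval of -0.01 to 0.32. The difference between the lines, 0.26 (SE 0.11, adjusted p = 0.117), did not pass with all libraries, and passed without QGP-1 vehicle replicate 3 (0.33). IGF1R (chr15:98648539-98964530, plus strand) went from 159, 155 and 133 CPM to 164, 180.0 and 172 CPM in QGP-1 cells. Its groups did not overlap, but the log2 difference of 0.21 (SE 0.08, adjusted p = 0.0520) did not pass, with a 95% interval of 0.04 to 0.38. It passed without vehicle replicate 1 (0.26) or DOX replicate 1 (0.25). It also passed with DESeq2 (adjusted p = 0.0367), with library size in place of TMM (adjusted p = 0.0492), without a filter on low counts (adjusted p = 0.0231) and with at least 10 counts in every library (adjusted p = 0.0464). The log2 values of those fits were 0.21 to 0.22. IGF1R passed on both TPM scales too, but 86.8% (deposited) and 50.4% (rescaled) of all genes were called higher there. In BON-1 cells IGF1R was at 104, 105 and 97.2 CPM with vehicle and 102, 108 and 116 CPM with DOX, with overlapping groups and a log2 difference of 0.09 (SE 0.08, adjusted p = 0.405) (95% interval -0.07 to 0.25). The IGF1R difference between the lines was -0.11 (SE 0.11, adjusted p = 0.574), with a 95% interval of -0.35 to 0.13. INSR per IGF1R (rescaled TPM) was 1.00 to 1.06 in the BON-1 vehicle and 1.16 to 1.42 in the BON-1 DOX libraries, and 0.843 to 0.913 and 0.821 to 0.888 in the QGP-1 libraries, where the groups overlapped.

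KIT (chr4:54657267-54740783, plus strand), the receptor for stem cell factor, had the largest change with DOX of the 10 genes in each line. QGP-1 libraries held 13.3, 13.6 and 13.7 CPM with vehicle, close together, and 6.59, 7.20 and 6.11 CPM with DOX. Every DOX library was far below every vehicle library, and the log2 fold change was -1.03 (SE 0.12, adjusted p = 2.37e-05). BON-1 libraries held 12.1, 11.9 and 10.1 CPM with vehicle and 4.69, 5.04 and 4.83 CPM with DOX, a log2 fold change of -1.23 (SE 0.18, adjusted p = 3.31e-06). The fall was 51.0% in QGP-1 and 57.4% in BON-1 cells, with 73 to 682 counts per library, and both calls held in all 6 fits that left out 1 library of the line. For KIT the lines differed by -0.19 (SE 0.20, adjusted p = 0.573), with a 95% interval of -0.61 to 0.23. Bulk RNA-seq cannot tell fewer cells with a transcript from less of it in each cell, for KIT and for every other gene here. The 8 immune and mast cell markers, summed, were at 15.1 to 17.7 rescaled TPM in the QGP-1 vehicle and 30.1 to 34.9 in the DOX libraries, and at 35.7 to 39.7 and 70.1 to 72.8 in BON-1 cells. LYZ and CD68 carried that sum, while PTPRC, CD3E, TPSAB1, CPA3 and HDC had fewer than 10 counts in every library. The sum was thus higher with DOX in both lines, on a scale where the median of all genes moved by 0.29 and -0.05 (log2), and its part in the KIT result was not tested.

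PDGFRA (chr4:54229280-54298245, plus strand), the other member of the KIT and PDGF receptor family, was the lowest of the 10. It had 14 to 36 counts per QGP-1 library and 42 to 116 per BON-1 library. The levels were 0.367, 0.602 and 0.502 CPM with vehicle and 0.622, 0.659 and 0.837 CPM with DOX in QGP-1 cells, and 4.12, 3.72 and 3.89 and 2.70, 2.96 and 3.41 CPM in BON-1 cells. The groups did not overlap in either line, yet neither log2 difference passed, at 0.52 (SE 0.43, adjusted p = 0.388) in QGP-1 and -0.37 (SE 0.25, adjusted p = 0.268) in BON-1 cells. At this depth the QGP-1 interval ran from -0.41 to 1.45, and the BON-1 interval from -0.88 to 0.15. The difference between the lines, -0.87 (SE 0.45, adjusted p = 0.200), did not pass, with a 95% interval of -1.80 to 0.06. The 8 mesenchymal markers, summed, were at 0.649 to 1.14 rescaled TPM with vehicle and 0.430 to 0.602 with DOX in QGP-1 cells, and at 5.89 to 7.55 and 11.6 to 12.6 in BON-1 cells, with ACTA2, DCN, PDGFRB and THY1 under 10 counts in every library. COL1A1 (QGP-1) and LUM (BON-1) were the genes of that list with enough counts to test. The median of all genes moved by 0.29 and -0.05 (log2) with DOX on that scale in QGP-1 and BON-1 cells, and the part of the sum in the PDGFRA result was not tested.

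RET (chr10:43077064-43130351, plus strand), the receptor for GDNF family ligands, fell in BON-1 cells. BON-1 libraries held 57.3, 62.9 and 54.3 CPM with vehicle and 32.2, 31.5 and 29.8 CPM with DOX. All DOX libraries were far below the vehicle libraries, and the log2 fold change was -0.90 (SE 0.09, adjusted p = 1.56e-08), a fall of 46.5%. In QGP-1 cells, where RET was more abundant, it was at 225, 225 and 189 CPM with vehicle and 200.2, 187 and 177 CPM with DOX. The groups overlapped there because vehicle replicate 3 was lower than DOX replicate 1. The log2 difference of -0.18 (SE 0.08, adjusted p = 0.100) (95% interval -0.35 to -0.01) did not pass with all libraries, and did without vehicle replicate 3 (-0.26). The difference between the lines was -0.72 (SE 0.12, adjusted p = 0.000186), lower in BON-1 cells, and this difference held in all 12 fits that left out 1 library, as it did for ERBB2 and ERBB3. The summed neuroendocrine markers were at 8200 to 9786 rescaled TPM with vehicle and 6571 to 7250 with DOX in BON-1 cells, and at 3825 to 4192 and 5558 to 5992 in QGP-1 cells, where the median of all genes moved by 0.29 (log2) on that scale. The genes of the list went both ways in BON-1 cells. CHGA, the granule protein chromogranin A, fell (-1.46, SE 0.11, adjusted p = 2.45e-11), while SCG2, another granin, rose (0.45, SE 0.08, adjusted p = 0.000126). Their part in the RET result was not tested.

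**Figure D2:**
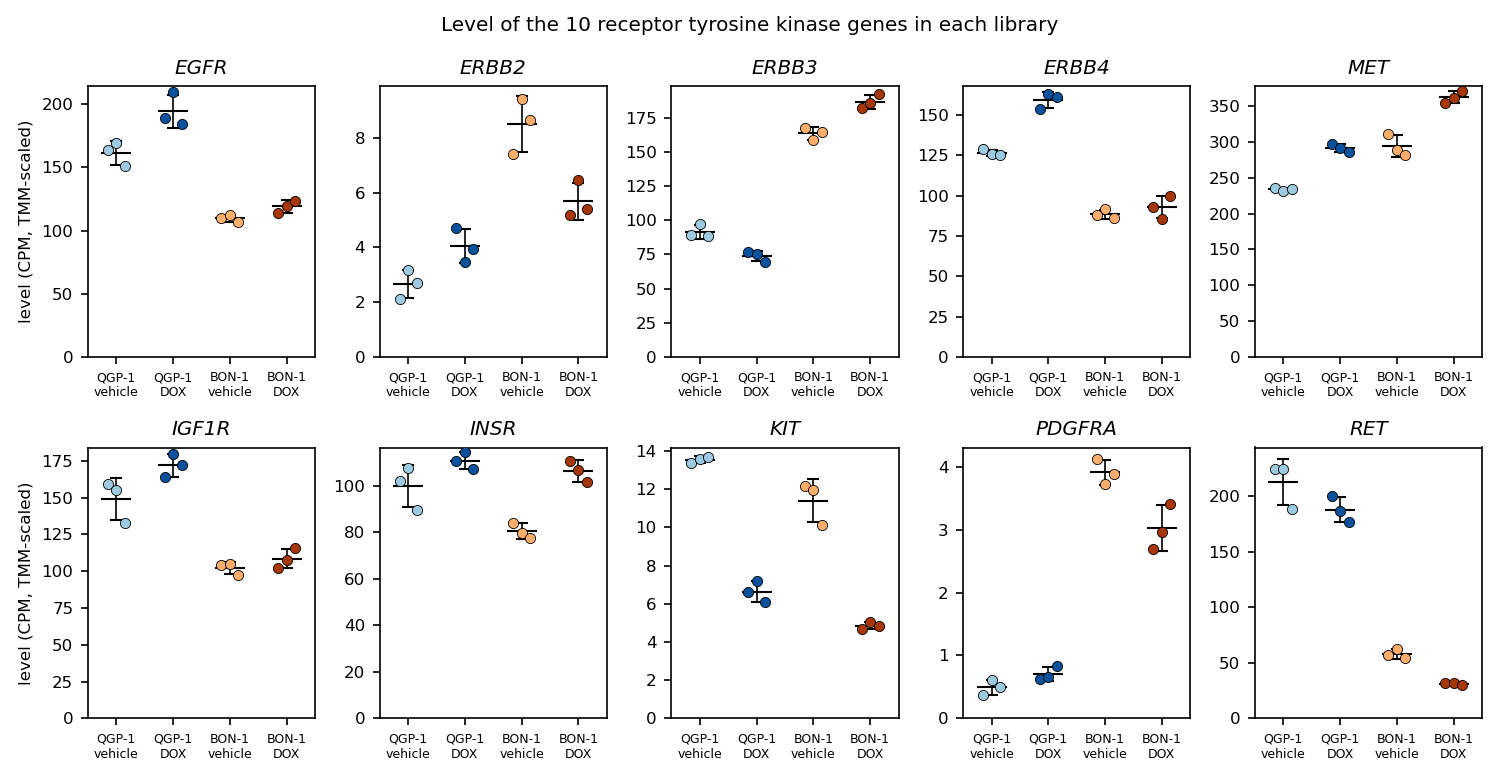
Level of each receptor gene in the 12 libraries (y axis, TMM-scaled CPM from 0, 1 panel per gene with its own scale), by line and treatment. Points are libraries, horizontal bars are group means, and error bars are 1 SD (n = 3). KIT is at 13.3 to 13.7 CPM in the QGP-1 vehicle and 6.11 to 7.20 CPM in the QGP-1 DOX libraries, and RET is at 54.3 to 62.9 and 29.8 to 32.2 CPM in BON-1 cells.

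The vehicle libraries of the 2 lines were compared to set the starting level of each receptor. All 10 genes differed, where 74.9% of all genes did (37.5% lower and 37.5% higher in BON-1 cells). Of the 10, 6 were lower and 4 higher. BON-1 cells had more transcript of 4 receptors. The log2 difference was 2.90 (SE 0.33, adjusted p = 1.74e-08) for PDGFRA, 1.59 (SE 0.20, adjusted p = 1.23e-07) for ERBB2, 0.76 (SE 0.07, adjusted p = 9.76e-10) for ERBB3 and 0.25 (SE 0.07, adjusted p = 0.00201) for MET. They had less of the other 6. RET differed most, at -1.95 (SE 0.09, adjusted p = 1.97e-16), and was followed by EGFR at -0.63 (SE 0.08, adjusted p = 4.70e-08) and IGF1R at -0.62 (SE 0.08, adjusted p = 2.21e-07). ERBB4 was at -0.59 (SE 0.07, adjusted p = 1.01e-07) and INSR at -0.39 (SE 0.08, adjusted p = 0.000105). The KIT difference of -0.32 (SE 0.14, adjusted p = 0.0351) had the largest adjusted p. It was lost without any 1 of the 3 QGP-1 vehicle libraries (-0.33, -0.32 and -0.31) or without BON-1 vehicle replicate 3 (-0.26). It was also lost with library size (adjusted p = 0.145) or upper-quartile factors (adjusted p = 0.0646) in place of TMM, without a filter on low counts (adjusted p = 0.0615) and with at least 10 counts in every library (adjusted p = 0.0603). The scaling between lines carries a shift of its own. Over the same 16598 genes, library size in place of TMM moved the median of all genes to 0.13 from 0.02. On the deposited TPM the median was 1.09, over the 11822 genes that passed its own filter. There the signs of EGFR, ERBB4, IGF1R, INSR and KIT turned, and RET did not pass (-0.51, limma adjusted p = 0.0569). On the rescaled TPM the median was 0.30, over 13916 genes, and the sign of KIT turned. INSR (-0.02, limma adjusted p = 0.813) and IGF1R (-0.25, limma adjusted p = 0.0562) did not pass on that scale.

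Within a line the receptors could be ordered per gene length, on TPM rescaled without the 3 noncoding RNAs. In QGP-1 vehicle libraries MET (61.6 ± 2.50) and RET (56.9 ± 7.58) led, and their ranges overlapped. EGFR (36.6 ± 3.36) and ERBB3 (26.8 ± 2.01) followed, each apart from its neighbours. IGF1R (21.6 ± 2.87), INSR (19.0 ± 2.33) and ERBB4 (18.8 ± 0.967) overlapped as neighbours, and KIT (4.78 ± 0.126), ERBB2 (0.881 ± 0.168) and PDGFRA (0.110 ± 0.0257) were well below. BON-1 vehicle libraries were led by MET (94.0 ± 4.54) and ERBB3 (58.1 ± 0.312), with EGFR (30.2 ± 1.48) next, all 3 apart. RET (18.8 ± 1.87), INSR (18.6 ± 0.778), IGF1R (17.9 ± 1.06) and ERBB4 (16.0 ± 0.912) overlapped as neighbours. KIT (4.89 ± 0.530), ERBB2 (3.43 ± 0.490) and PDGFRA (1.07 ± 0.0329) closed the order here too. These are means ± SD (n = 3) in rescaled TPM.

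As shares of the summed TPM of the 10 genes, which need no scaling between libraries, MET went from 25.0% ± 1.35 (SD, n = 3) to 28.9% ± 0.53 in QGP-1 and its share of BON-1 cells went from 35.7% ± 0.93 to 39.9% ± 0.10. The RET share of QGP-1 cells was 23.0% ± 1.17 with vehicle and 18.9% ± 0.88 with DOX, and that of BON-1 cells was 7.16% ± 0.49 and 3.47% ± 0.21. ERBB3 went from 10.9% ± 0.45 to 8.10% ± 0.22 in QGP-1 cells, and its share in BON-1 cells was 22.1% ± 0.78 with vehicle and 22.8% ± 0.12 with DOX. A share also falls when other genes of the sum rise. In QGP-1 cells the mean sum of the 10 genes went from 247 to 333 rescaled TPM. There RET itself went from 56.9 to 62.7 and ERBB3 from 26.8 to 26.9, on a scale where the median of all genes moved by 0.29 (log2). KIT was a small part throughout, at 1.94% ± 0.12 and 0.881% ± 0.050 in QGP-1 and 1.86% ± 0.13 and 0.717% ± 0.027 in BON-1 cells. MET per RET was 1.02 to 1.23 in the QGP-1 vehicle and 1.47 to 1.59 in the QGP-1 DOX libraries, and 4.54 to 5.37 and 10.9 to 12.3 in BON-1 cells. The same gene pair thus stood near parity in one line and far from it in the other, and moved the same way in both.

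**Figure D3:**
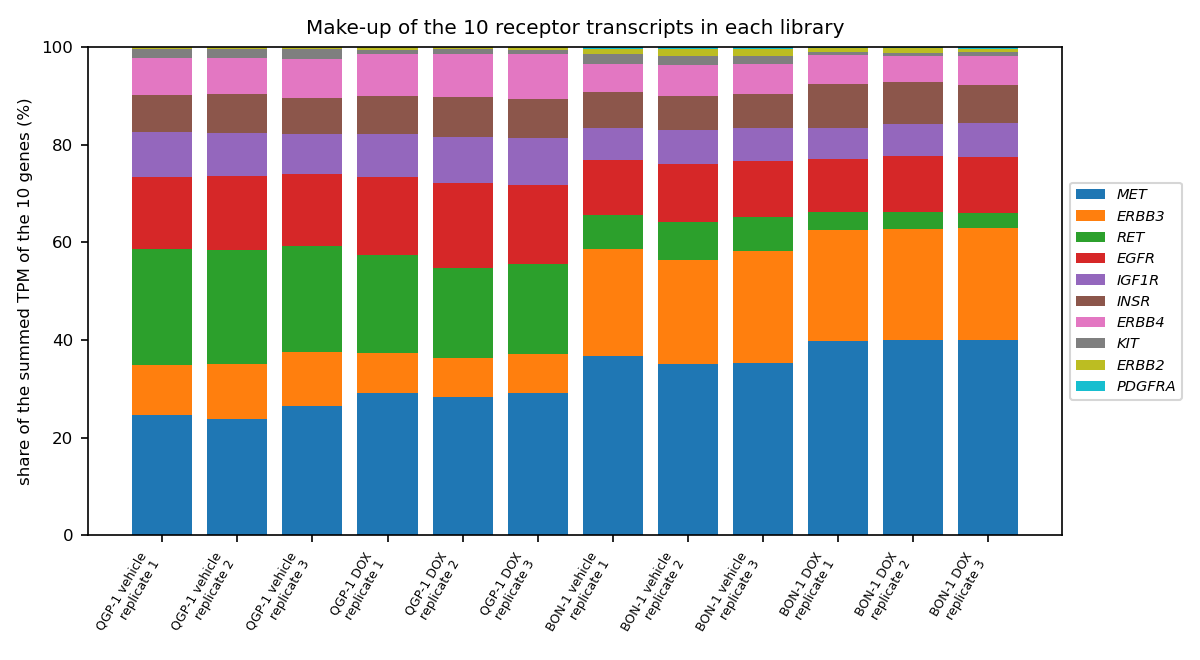
Share of each receptor gene (y axis, percent of the summed TPM of the 10 genes) in each of the 12 libraries (x axis, 1 stacked bar per library). MET makes up a mean of 25.0% in the QGP-1 vehicle and 39.9% in the BON-1 DOX libraries, and RET 23.0% and 3.47%.

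Of the ligands of the ERBB receptors, those in BON-1 cells moved in 1 direction. There 5 of 7 measured ligands rose and 0 fell, with a median log2 fold change of 0.94. Among all genes tested in that line, 17.0% rose and 18.3% fell, with a median of -0.01. EREG (epiregulin) went from 25.1 to 26.0 CPM with vehicle to 78.0 to 103 CPM with DOX, a log2 fold change of 1.82 (SE 0.10, adjusted p = 3.22e-14). AREG (amphiregulin) went from 5.33 to 9.0 CPM to 16.7 to 23.5 CPM (1.53, SE 0.17, adjusted p = 8.36e-08). BTC (betacellulin) rose by 1.25 (SE 0.24, adjusted p = 0.000147), NRG4, a ligand of ERBB4, by 0.56 (SE 0.10, adjusted p = 5.52e-05), and HBEGF, at 1.44 to 4.11 CPM, by 0.94 (SE 0.31, adjusted p = 0.0173). The HBEGF call was lost without vehicle replicate 2 (0.87), vehicle replicate 3 (0.82) or DOX replicate 1 (0.79). TGFA (0.13, SE 0.10, adjusted p = 0.324) and NRG1 (0.38, SE 0.18, adjusted p = 0.113) did not pass, although NRG1 passed without DOX replicate 3 (0.50).

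In QGP-1 cells 3 of 9 measured ERBB ligands fell and 1 rose, where 17.7% of all genes fell and 17.3% rose. EGF fell by 0.40 (SE 0.14, adjusted p = 0.0432), BTC fell by 0.55 (SE 0.17, adjusted p = 0.0225) and NRG3 fell by 0.56 (SE 0.16, adjusted p = 0.0166). NRG1 rose by 1.73 (SE 0.38, adjusted p = 0.00275), from 0.315 to 0.583 CPM with vehicle to 1.41 to 1.74 CPM with DOX. The EGF call held in 2, the BTC call in 3 and the NRG3 call in 4 of 6 fits that left out 1 library, and all 3 were lost without vehicle replicate 2 (-0.41, -0.58 and -0.39) or DOX replicate 2 (-0.32, -0.46 and -0.52). EGF was also lost without vehicle replicate 3 (-0.28) or DOX replicate 3 (-0.34), and BTC without vehicle replicate 1 (-0.51). AREG (0.69, SE 0.34, adjusted p = 0.133), HBEGF (0.24, SE 0.22, adjusted p = 0.445), TGFA (-0.04, SE 0.11, adjusted p = 0.839), NRG2 (0.16, SE 0.20, adjusted p = 0.572) and NRG4 (0.14, SE 0.09, adjusted p = 0.255) did not pass. EREG, at 0 to 1 count per QGP-1 library, was below what could be tested. BTC thus fell in one line and rose in the other, and that difference passed, at 1.81 (SE 0.32, adjusted p = 0.000344).

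Ligands of the other receptors were few. HGF had 0 to 7 counts and IGF1 0 to 3 counts in any library, and INS had 0. A count of 0 in 1 library allows an expected count of up to about 3 in it. IGF2, a ligand of IGF1R and INSR, differed widely between the lines. It had 16 to 113 counts per QGP-1 and 32234 to 76864 per BON-1 library. It fell by 0.32 (SE 0.09, adjusted p = 0.00694) in BON-1 and rose by 1.45 (SE 0.38, adjusted p = 0.00957) in QGP-1 cells, and the changes differed by -1.75 (SE 0.27, adjusted p = 8.97e-05). Relative to the median of all genes, that last sign turned on the deposited TPM. KITLG, the ligand of KIT, was at 22.8 to 25.5 CPM in the QGP-1 libraries and 73.4 to 97.5 CPM in the BON-1 libraries, and neither difference passed, at -0.02 (SE 0.09, adjusted p = 0.866) in QGP-1 and 0.21 (SE 0.08, adjusted p = 0.0583) in BON-1 cells. The BON-1 value of KITLG passed without DOX replicate 2 (0.26).

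The next list held the ligands of MET, of KIT and of the PDGF receptors as a family, not of PDGFRA alone. Of these, 2 of 5 fell and 1 rose in QGP-1 and 1 of 4 fell and 2 rose in BON-1 cells. The shares of all genes were 17.7% lower and 17.3% higher in QGP-1 and 18.3% lower and 17.0% higher in BON-1 cells. Among the platelet-derived growth factors, in BON-1 cells PDGFA fell by 1.37 (SE 0.14, adjusted p = 1.95e-08), from 20.1 to 24.4 CPM to 7.12 to 9.26 CPM, and in QGP-1 cells PDGFC fell by 0.89 (SE 0.12, adjusted p = 0.000112). PDGFA in QGP-1 cells gave 0.41 (SE 0.22, adjusted p = 0.164), and passed without DOX replicate 2 (0.61). PDGFD rose in both lines, by 0.75 (SE 0.24, adjusted p = 0.0271) in QGP-1 and 0.37 (SE 0.09, adjusted p = 0.00145) in BON-1 cells. PDGFB fell by 0.42 (SE 0.15, adjusted p = 0.0385) in QGP-1 and rose by 0.68 (SE 0.20, adjusted p = 0.00836) in BON-1 cells, a difference of 1.11 (SE 0.23, adjusted p = 0.00180). In QGP-1 cells the PDGFD call was lost without vehicle replicate 1 (0.80), vehicle replicate 3 (0.60) or DOX replicate 1 (0.57). The PDGFB call there was lost without vehicle replicate 1 (-0.32) or 2 (-0.47), or DOX replicate 1 (-0.35) or 2 (-0.40).

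RET signals with a GFRA co-receptor, and of the 10 listed ligands and co-receptors 3 could be tested in QGP-1 cells, where 2 fell, and 2 in BON-1 cells, where 1 fell and 1 rose. Beside that, 17.7% of all genes fell in QGP-1 cells, and 18.3% fell and 17.0% rose in BON-1 cells. GFRA1 had 0 to 11, GFRA2 0 to 2, GFRA3 0 to 12, GFRA4 0 and GFRAL 0 to 6 counts in any library, and GDNF had 0 to 6. NRTN (neurturin), a GDNF family ligand, fell in both lines, with log2 fold changes of -0.74 (SE 0.21, adjusted p = 0.0146) in QGP-1 and -1.21 (SE 0.44, adjusted p = 0.0323) in BON-1 cells. Without vehicle replicate 2 the QGP-1 value did not pass (-0.71). The BON-1 call held in 2 of 6 fits, with log2 values of -1.95 to -0.93, and was lost without vehicle replicate 1 or 2 or DOX replicate 1 or 2. GDF15, which signals through GFRAL and RET, lay between 630 and 786 CPM in the vehicle and between 369 and 421 CPM in the DOX libraries of QGP-1 cells (-0.82, SE 0.09, adjusted p = 1.33e-05). The BON-1 levels were 284 to 308 CPM with vehicle and 755 to 971 CPM with DOX (1.60, SE 0.09, adjusted p = 6.44e-14). The changes differed by 2.42 (SE 0.13, adjusted p = 1.91e-11).

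**Figure D4:**
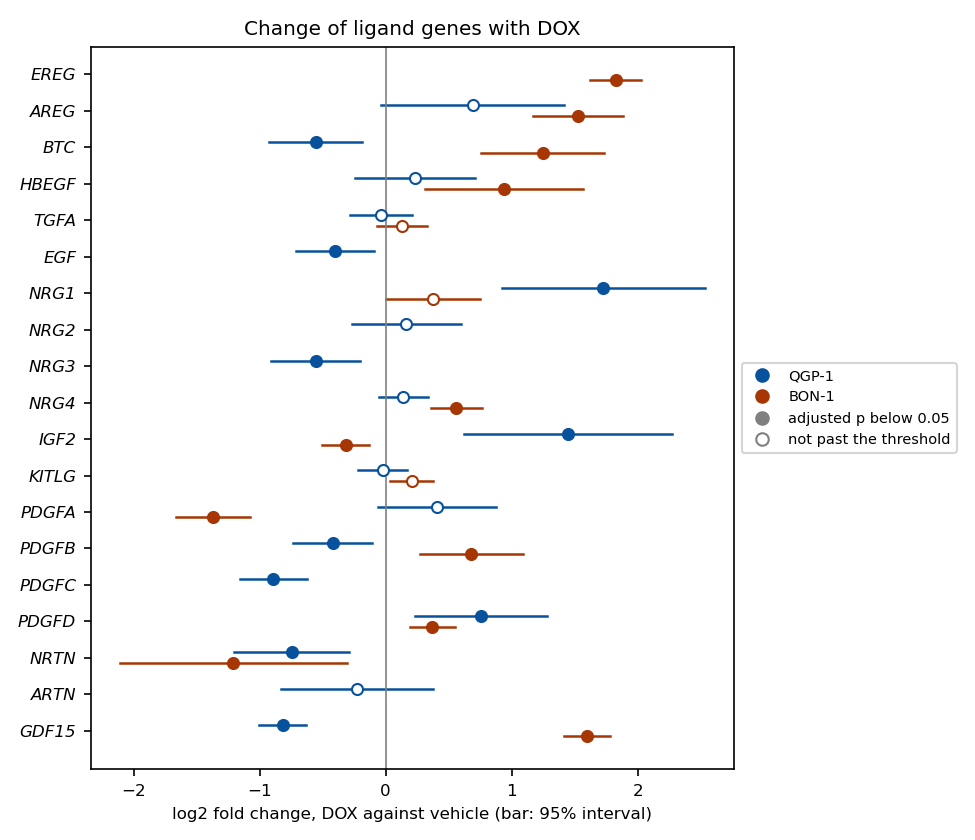
Log2 fold change with DOX against vehicle (x axis, TMM-scaled counts) for listed ligand genes that were tested in a line. QGP-1 is in blue and BON-1 in brown. The platelet-derived growth factors are listed for the PDGF receptors as a family, not for PDGFRA alone. Points are edgeR estimates, bars are 95% intervals, and filled points passed an adjusted p of 0.05. EREG, AREG, BTC, HBEGF and NRG4 are filled and to the right of 0 in BON-1 cells, and BTC, PDGFB, GDF15 and IGF2 lie on opposite sides of 0 in the 2 lines. On the deposited TPM, EGF, KITLG and TGFA in QGP-1 (KITLG and TGFA on the rescaled TPM too) and KITLG and TGFA in BON-1 cells change sign.

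Genes for proteins around the receptors changed in part. For comparison, 17.7% of all genes fell and 17.3% rose in QGP-1 cells, and 18.3% fell and 17.0% rose in BON-1 cells. Of the 5 genes of sheddases, proteases and their helpers that cut ligands and receptors from the membrane, 2 fell and 2 rose in QGP-1 cells and 0 of 5 passed in BON-1 cells. ADAM10 rose in QGP-1 cells by 0.47 (SE 0.07, adjusted p = 0.000113). ADAM17 rose by 0.24 (SE 0.07, adjusted p = 0.0210) and ADAM9 fell by 0.22 (SE 0.07, adjusted p = 0.0264), calls that held in 2 and 3 of 6 fits that left out 1 library, with log2 values of 0.19 to 0.30 and -0.26 to -0.18. Both were lost without vehicle replicate 1 or DOX replicate 2, ADAM17 also without vehicle replicate 2 or DOX replicate 3 and ADAM9 also without vehicle replicate 3, and ADAM9 turned to 0.47 on the deposited and 0.11 on the rescaled TPM. Of the IGF-binding genes, 1 of 4 fell and 2 rose in QGP-1 and 3 of 6 fell and 2 rose in BON-1 cells. IGFBP2 fell in QGP-1 cells by 1.57 (SE 0.13, adjusted p = 1.03e-06), IGF2R, which clears IGF2, rose there by 0.31 (SE 0.07, adjusted p = 0.00475), and IGFBP3 rose in BON-1 cells by 0.67 (SE 0.08, adjusted p = 1.46e-07). IGFBP1 also rose there by 1.70 (SE 0.21, adjusted p = 2.92e-07) and IGFBP6 fell by 0.85 (SE 0.22, adjusted p = 0.00385). IGFBP5 rose by 0.33 (SE 0.10, adjusted p = 0.0249) in QGP-1 cells, where the call was lost without vehicle replicate 1 (0.35) or 3 (0.24) or DOX replicate 1 (0.30) or 2 (0.26), and fell by 0.43 (SE 0.10, adjusted p = 0.00108) in BON-1 cells.

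Of the listed adaptors and other proteins that act between receptors and RAS or PI3K, some of which restrain signaling, 3 of 28 fell and 13 rose in QGP-1 cells and 4 of 26 fell and 6 rose in BON-1 cells. For these and the next list, the shares of all genes were 17.7% lower and 17.3% higher in QGP-1 cells. They were 18.3% lower and 17.0% higher in BON-1 cells. SHC4, an adaptor of the SHC family, rose in both lines, by 1.37 (SE 0.19, adjusted p = 0.000106) in QGP-1 and 0.63 (SE 0.15, adjusted p = 0.00165) in BON-1 cells. SHC3 rose by 0.87 (SE 0.10, adjusted p = 1.84e-05) and GRB10, an adaptor that restrains INSR and IGF1R, fell by 0.87 (SE 0.12, adjusted p = 9.06e-05) in QGP-1 cells, and PLCG2, a phospholipase that acts below receptors, rose by 1.48 (SE 0.21, adjusted p = 2.12e-06) in BON-1 cells. DOK1 fell there by 0.83 (SE 0.33, adjusted p = 0.0486), a call that held in 2 of 6 fits and was lost without any 1 vehicle library (-0.80, -0.83 and -0.89) or without DOX replicate 3 (-0.48). Of the genes listed as negative regulators of receptors, not all of which act only in that way, 7 of 23 fell and 4 rose in QGP-1 and 5 of 23 fell and 6 rose in BON-1 cells. CBL, a ubiquitin ligase that sends EGFR and MET to degradation, rose by 0.51 (SE 0.08, adjusted p = 0.000387) in QGP-1 cells, where LRIG3 fell by 0.56 (SE 0.13, adjusted p = 0.00505) and CBLC fell by 0.49 (SE 0.13, adjusted p = 0.00834). PTPN1, a phosphatase of INSR and other receptors, rose by 0.70 (SE 0.08, adjusted p = 9.58e-08) and SOCS3 by 1.04 (SE 0.29, adjusted p = 0.00590) in BON-1 cells. SH2B2 fell there by 0.71 (SE 0.26, adjusted p = 0.0362), a call that held only without DOX replicate 3, with log2 values of -0.80 to -0.68 over the 6 fits.

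The list of genes that ERK signaling is known to switch on held 21 genes. In QGP-1 cells 10 of 20 rose and 2 fell, and in BON-1 cells 12 of 20 rose and 1 fell, with medians of 0.23 and 0.28 beside -0.01 over all genes. Among all genes tested, 17.3% rose and 17.7% fell in QGP-1 and 17.0% rose and 18.3% fell in BON-1 cells. EPHA4 was on this list and also on that of other receptor tyrosine kinases below. EGR1, an early response factor, rose in QGP-1 cells by 1.31 (SE 0.10, adjusted p = 7.80e-07) and SPRY4, a feedback inhibitor, by 0.66 (SE 0.07, adjusted p = 2.05e-05). DUSP5, an ERK phosphatase, rose in BON-1 cells by 1.09 (SE 0.08, adjusted p = 5.64e-12), DUSP4 by 0.71 (SE 0.07, adjusted p = 1.69e-08) and FOSL1 by 0.79 (SE 0.15, adjusted p = 0.000168). ERK activity itself was not measured in these libraries.

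The list of other receptor tyrosine kinases held 48 genes. Of the 35 tested in QGP-1 cells 8 fell and 5 rose, with a median of -0.14, and of the 29 tested in BON-1 cells 8 fell and 5 rose, with a median of -0.12. The shares of all genes were 17.7% lower and 17.3% higher in QGP-1 and 18.3% lower and 17.0% higher in BON-1 cells, with medians of -0.01. EPHB1 fell in QGP-1 cells by 1.51 (SE 0.19, adjusted p = 5.28e-05), FGFR4 fell by 1.01 (SE 0.18, adjusted p = 0.000747), and EPHA4 rose by 0.94 (SE 0.07, adjusted p = 3.01e-07). TYRO3 fell in BON-1 cells by 1.02 (SE 0.15, adjusted p = 3.38e-06), FGFR3 fell by 0.86 (SE 0.17, adjusted p = 0.000315) and EPHB4 fell by 0.66 (SE 0.10, adjusted p = 1.06e-05). The difference in median between these genes and the 10 was not tested.

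The genes whose levels followed a receptor most closely within both lines were sought by the mean of the Pearson correlations in the 6 libraries of each line. Each is a description over libraries that share the DOX contrast, among 9013 genes (9014 for ERBB2). MET was followed by GNPTAB, GZF1 and FNIP2 (mean r 1.00, 0.99 and 0.99) and KIT by LPGAT1, ALG9 and TMEM33 (1.00, 0.99 and 0.99). EGFR was followed by CBL, INO80D and LCOR (0.97, 0.96 and 0.96), ERBB3 by MITF, RAI14 and HK2 (0.97, 0.97 and 0.96), and INSR by UBAP2, SMPD3 and LMTK2 (0.97, 0.96 and 0.95). RET was followed by AURKB, OBSL1 and AKT1 (0.97, 0.95 and 0.95), ERBB4 by ABCC4, KANTR and ZNF264 (0.96, 0.92 and 0.92), and ERBB2 by NCR3LG1, DTNB and TCAF1 (0.95, 0.93 and 0.91).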

How the data were processed

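RNA was extracted with RNeasy Plus, made into TruSeq Stranded mRNA libraries and aligned by the authors with STAR to GRCh38. The authors deposited whole-number read counts per gene and TPM, which they divided by gene length and scaled to a common total, in 1 table of each kind per cell line. The counting program, its strand setting, the handling of multi-mapped reads, the gene lengths and the STAR version are not given in the sources used here. The authors' own comparisons used DESeq2.

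The counts as deposited were tested with edgeR 4.0.16 (R 4.3.3): TMM scaling, filterByExpr by group, a quasi-likelihood fit per line, Benjamini-Hochberg adjustment over all genes tested and a threshold of 0.05. The difference between lines and between vehicle groups came from 1 fit of 12 libraries. Depth was 38224144 to 50525926 counts in QGP-1 and 15981954 to 28484324 in BON-1 libraries, and the number of libraries, 3 per group, limits the precision. The deposited TPM were tested with limma 3.58.1 on log2(TPM + 1), keeping a gene if its TPM averaged 1 or more. DESeq2 1.42.0, other scalings and filters, a replicate block and the omission of each library were alternatives. Replicate libraries differed by more than sampling noise, and each was counted as 1 sample. Promoters were read from RefSeq (GRCh38.p14) and positions from GENCODE v44. The fits were tested on simulated data.

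Members and gene lists were chosen with earlier results of these data known. Named in the text are the 10 receptor genes, MUC1, of each other list and line up to 3 called genes with the largest change at a mean log2 CPM of at least 1, every ligand or co-receptor at that level, marker genes, and the 3 genes most like a receptor at a mean log2 CPM of at least 3. Ligands and co-receptors below that level are given by their counts. Of each list, counts and the median are given, with no set test.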

Additional observations from a re-analysis of the deposited data

Results flagged for a closer look

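The change with DOX differed between the lines, by edgeR's test of the difference in 1 fit of 12 libraries, for 3 receptor genes. As the log2 fold change in BON-1 minus that in QGP-1 cells, ERBB2 gave -1.17 (SE 0.28, 95% interval -1.75 to -0.58, adjusted p = 0.00554). ERBB3 gave 0.52 (SE 0.10, 95% interval 0.31 to 0.73, adjusted p = 0.000984). RET gave -0.72 (SE 0.12, 95% interval -0.96 to -0.47, adjusted p = 0.000186). ERBB2 and ERBB3 were called in opposite directions in the 2 lines, but the ERBB3 call in BON-1 cells was lost in 7 of 9 other fits of all libraries and in 5 of 6 that left 1 out. RET was called in BON-1 cells and lower without passing in QGP-1 cells. The ERBB3 difference between the lines did not pass on the rescaled TPM (0.14) or the deposited TPM (-0.53). On those scales the median of all genes for this difference was -0.33 and -0.88. Relative to those medians the ERBB3 difference was 0.47 and 0.35.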

How the results depend on the processing

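The receptor gene counts stayed within 1.5 times of those reported under DESeq2, library size or upper-quartile scaling, either filter on low counts, and fits that shared or split the lines. Single calls did change. ERBB3 in BON-1 cells and KIT between the vehicle groups were lost with library size or upper-quartile scaling and with either filter. IGF1R in QGP-1 cells was gained with DESeq2, library size and either filter, and the ERBB4 difference between the lines with DESeq2 and library size. The TPM scales and a minimum change did move the counts. On the deposited TPM, the receptor genes split into 0 lower and 7 higher in QGP-1 cells (of all genes, 91 lower and 9166 higher) and 0 lower and 0 higher in BON-1 cells (of all genes, 229 lower and 29 higher). The split was 6 lower and 0 higher for the difference between the lines (of all genes, 8060 lower and 54 higher) and 0 lower and 7 higher between the vehicle groups (of all genes, 635 lower and 9301 higher). On the rescaled TPM, the receptor genes split into 1 lower and 6 higher in QGP-1 cells (of all genes, 668 lower and 6520 higher) and 2 lower and 1 higher in BON-1 cells (of all genes, 2395 lower and 1410 higher). The split was 7 lower and 0 higher for the difference between the lines (of all genes, 5566 lower and 488 higher) and 3 lower and 3 higher between the vehicle groups (of all genes, 3689 lower and 7062 higher). With an absolute log2 fold change above 1, the receptor genes split into 1 lower and 0 higher in QGP-1 cells (of all genes, 360 lower and 183 higher) and 1 lower and 0 higher in BON-1 cells (of all genes, 447 lower and 272 higher). The split was 1 lower and 0 higher for the difference between the lines (of all genes, 293 lower and 386 higher) and 1 lower and 2 higher between the vehicle groups (of all genes, 3118 lower and 3613 higher). Signs turned on the deposited TPM for these log2 values: in QGP-1 cells ERBB3 0.37, RET 0.53, EGF 0.18, CBLC 0.19, ADAM9 0.47, KITLG 0.48, TGFA 0.48, in BON-1 cells EGFR -0.23, ERBB3 -0.17, ERBB4 -0.25, MET -0.059, IGF1R -0.23, KITLG -0.15, TGFA -0.20, between the lines ERBB3 -0.53, INSR -0.71, and at baseline EGFR 0.68, ERBB4 0.66, IGF1R 0.65, INSR 0.84, KIT 0.61. On the rescaled TPM they turned for ERBB3 0.0087, RET 0.15, ADAM9 0.11, KITLG 0.27, TGFA 0.26 in QGP-1 cells, INSR -0.11 between the lines and KIT 0.023 at baseline. The shift of the median of all genes given above moved with them. Signs also turned for values that did not pass and lay near 0: KITLG without QGP-1 vehicle replicate 2 (0.011), TGFA without QGP-1 vehicle replicate 3 (0.024) or DOX replicate 2 (0.055), ERBB4 without BON-1 DOX replicate 3 (-0.0047), and the MET difference between the lines with upper-quartile factors (0.011) or without QGP-1 vehicle replicate 2 (0.0014) or BON-1 vehicle replicate 1 (0.021). With 1 library left out these values ranged over -0.069 to 0.011 for KITLG, -0.13 to 0.055 for TGFA, -0.0047 to 0.11 for ERBB4 and -0.056 to 0.021 for the MET difference. Leaving out 1 library gave 2 to 3 receptor genes lower and 3 to 4 higher in QGP-1 cells (1996 to 2614 and 1975 to 2644 of all genes), 2 to 3 receptor genes lower and 2 to 3 higher in BON-1 cells (2194 to 2577 and 1908 to 2196 of all genes), 2 to 3 receptor genes lower and 1 to 2 higher for the difference between the lines (971 to 1700 and 1076 to 1359 of all genes), 5 to 6 receptor genes lower and 4 higher in every fit between the vehicle groups (5967 to 6395 and 5879 to 6524 of all genes). Whether replicate numbers pair the libraries was not settled, since a check on 3 libraries per group can miss a pairing. Same-numbered vehicle and DOX libraries correlated at -0.02 to 0.05 in QGP-1 and -0.04 to 0.07 in BON-1 cells after the group means were removed. In each line 2 of 6 libraries correlated best with their own number. With the replicate number as a block, 3 receptor genes were lower and 4 higher in QGP-1 cells, where IGF1R (0.21) and RET (-0.18) passed and ERBB2 (0.61) did not (of all genes, 18.1% lower and 18.2% higher), and 3 were lower and 2 higher in BON-1 cells, where ERBB3 (0.19) did not pass (of all genes, 18.2% lower and 16.5% higher). The block gave 2 lower and 1 higher for the difference between the lines (of all genes, 7.89% lower and 8.81% higher). The cause of these shifts was not tested. Depth limits PDGFRA (14 to 116 counts per library over the 12), ERBB2 (81 to 227) and KIT in BON-1 cells (73 to 342), which had the fewest counts of the 10.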
